A study of Mus musculus with 20 samples.

Results

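The semaphorins, plexins and neuropilins of cultured mouse fat cells were followed through overexpression and knockdown of Foxk1 and of Foxk2. Members were the protein-coding genes with a mouse symbol beginning Sema3 to Sema7, Plxna, Plxnb, Plxnc or Plxnd, together with Nrp1 and Nrp2. The rule used names and no measured value, and it found 31 genes among the 48440 of the expression table: 20 semaphorins, 9 plexins and 2 neuropilins.

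Semaphorins are ligands, secreted in class 3 and bound to the membrane in classes 4 to 7. Plexins are their transmembrane receptors and act inside the cell on small GTPases, and so on adhesion and the cytoskeleton. Most class 3 semaphorins cannot hold a plexin by themselves and bind a neuropilin, which pairs with a class A plexin or Plxnd1, whereas membrane-bound classes bind plexins directly. The system was described first in the steering of axons and is also known from blood vessels and immune cells. Neuropilins are in addition co-receptors for vascular endothelial growth factors.

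The cells were 3T3-L1, 1 clonal preadipocyte line from Swiss mice, differentiated with the thiazolidinedione troglitazone (10 µM), insulin (5 µg/ml), isobutyl methylxanthine (0.5 mM) and dexamethasone (1 µM). Insulin alone was kept from day 4 and plain growth medium from day 6. Total RNA of 20 libraries was sequenced in 8 groups. Constitutive FOXK1 or FOXK2 expression was set against an empty vector, and Foxk1 or Foxk2 shRNA against a scrambled shRNA, with separate controls for each factor. Foxk1 groups held 3 libraries each and Foxk2 groups 2. Foxk1 and Foxk2 are related forkhead transcription factors. All comparisons are of a manipulation with its own controls, and no control library serves in more than 1 of them.

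Levels are RPKM, the reads assigned to a gene divided by its exon length and by the total reads of the library. Depth recovered from the table was 16739763 to 20772823 reads in the 12 libraries of the Foxk1 groups and 31378224 to 36157008 in the 8 of the Foxk2 groups. The first principal component of all genes, with 79.5% of the variance, parted these 12 libraries from the other 8, controls included. On the log2 scale Foxk1 had a fold change of -1.23 in Foxk1 knockdown, and Foxk2 one of -1.83 in Foxk2 knockdown and 0.56 in Foxk2 overexpression. Foxk1 itself was lower in the libraries labelled Foxk1 overexpression, at 6.16, 6.06 and 6.08 RPKM, than in their controls, at 7.11, 7.48 and 8.04 RPKM (log2 fold change -0.28 ± 0.055 (SE, adjusted p = 0.000515)). The other factor changed as well: Foxk2 had 0.29 under the Foxk1 overexpression label and -0.19 in Foxk1 knockdown, and Foxk1 had -0.66 in Foxk2 overexpression and 0.30 in Foxk2 knockdown, all called. Directions for the libraries labelled Foxk1 overexpression are directions of the label. Whether replicates came from separate cultures is not given in the labels, and the spread that each p-value rests on may be technical.

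The 4 members of highest mean were receptors. Plxnd1 had a mean of 35.5 RPKM over the 20 libraries, Nrp1 35.1, Plxna1 28.8 and Plxnb2 18.4. Among semaphorins, the highest mean was that of Sema6d at 8.50 RPKM. Sema3c followed at 6.22, Sema3f at 5.66, Sema4b at 5.58 and Sema3g at 5.20. The middle of the range held Sema4c (3.79), Plxna2 (3.20), Nrp2 (2.37), Plxna3 (2.33), Sema3a (2.15) and Sema5a (2.01).

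A mean of 0.5 RPKM was reached by 19 of the 31 members, and 16 of them reached 1 RPKM. Below 1 RPKM but inside were Sema4a at 0.880, Sema4g at 0.783 and Sema6c at 0.567, with Sema3b just above at 1.29. Just outside were Plxna4 at 0.377 and Sema7a at 0.351. Of the 12 under 0.5 RPKM, Plxna4 and Sema7a still had 0.5 RPKM in at least 2 libraries, which was the condition for a test, so 21 members were tested. The 10 members not tested were Plxnb1 (mean 0.204), Plxnb3, Plxnc1, Sema3d, Sema3e, Sema4d, Sema4f, Sema5b, Sema6a and Sema6b. Sema3e, the direct ligand of Plxnd1, was listed at 0 in 18 of 20 libraries, while Plxnd1 was the member of highest mean.

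**Figure D1:**
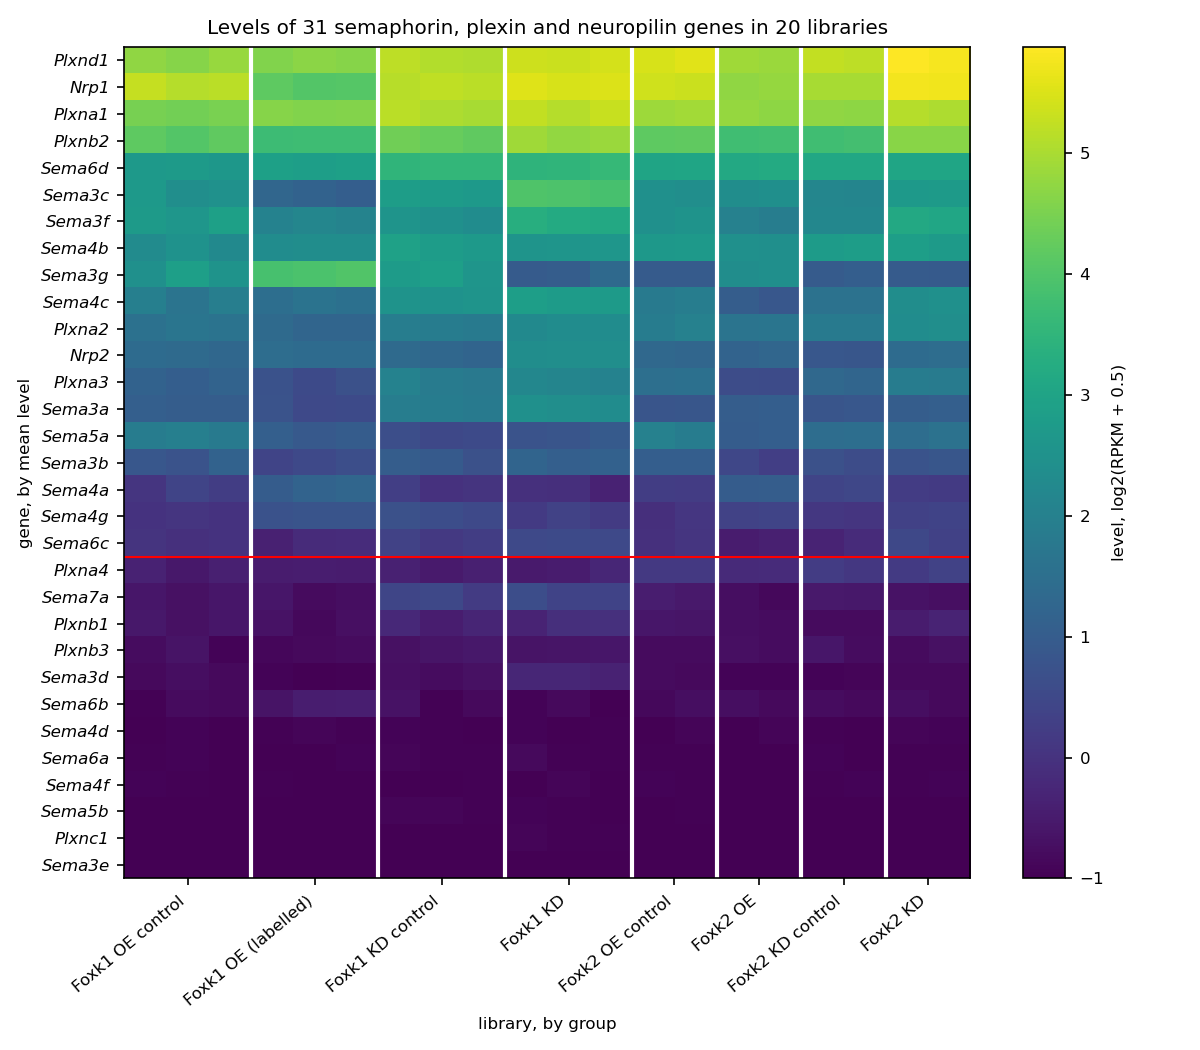
Level of each of the 31 members (rows, ordered by mean) in each of the 20 libraries (columns, by group) as log2(RPKM + 0.5); the red line marks a mean of 0.5 RPKM. OE stands for overexpression and KD for knockdown. The receptors Plxnd1, Nrp1, Plxna1 and Plxnb2 are at the top, and in the 3 libraries labelled Foxk1 overexpression Sema3g (14.3 to 15.6 RPKM) stands above Plxnb2 (12.6 to 12.9 RPKM).

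Members were more often lower than higher in overexpression and more often higher than lower in knockdown. A gene is called where its adjusted p is under 0.05 in the model of all genes. In the libraries labelled Foxk1 overexpression, 15 of 21 members were called, 5 higher and 10 lower, where 47.8% of all genes tested were called. Foxk1 knockdown changed 16 members, 13 upward and 3 downward, against 35.9% of all genes. Foxk2 overexpression changed 17, 5 upward and 12 downward, against 45.0%. In Foxk2 knockdown 13 members rose, against 33.7% called in either direction, and 0 fell. Of the 21 members, 0 were lower there at an unadjusted p under 0.05 in limma, and 0 were called lower with voom on recovered reads. Once the dependence on gene length and GC was removed, 2 were called lower (Sema4a and Sema6d). Sema6d was also called lower with median-ratio scaling, and Sema4a when that comparison or factor was modelled by itself.

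The median log2 fold change of the 21 members was -0.22 in labelled Foxk1 overexpression, 0.26 in Foxk1 knockdown, -0.29 in Foxk2 overexpression and 0.35 in Foxk2 knockdown. Over all genes tested these medians lay between 0 and 0.017. The lowest and highest library of a group did not overlap those of its controls for 17, 16, 20 and 17 members in the same order, where the shares of all genes were 52.3%, 44.2%, 70.3% and 67.2%. Changes of at least 2-fold on the log2(RPKM + 0.5) scale were few. Sema3c, Sema3g and Nrp1 passed it in labelled Foxk1 overexpression, Sema3c, Sema3g and Nrp2 in Foxk1 knockdown, Sema3g in Foxk2 overexpression and no member in Foxk2 knockdown. Of all genes, 3.62%, 1.65%, 3.91% and 2.37% were called with such a fold. The added 0.5 RPKM lowers the folds of low genes. By the ratio of mean RPKM more members reached 2-fold, among them Sema3f (4.04 to 8.19) and Sema6c (0.353 to 0.832) in Foxk2 knockdown.

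**Figure D2:**
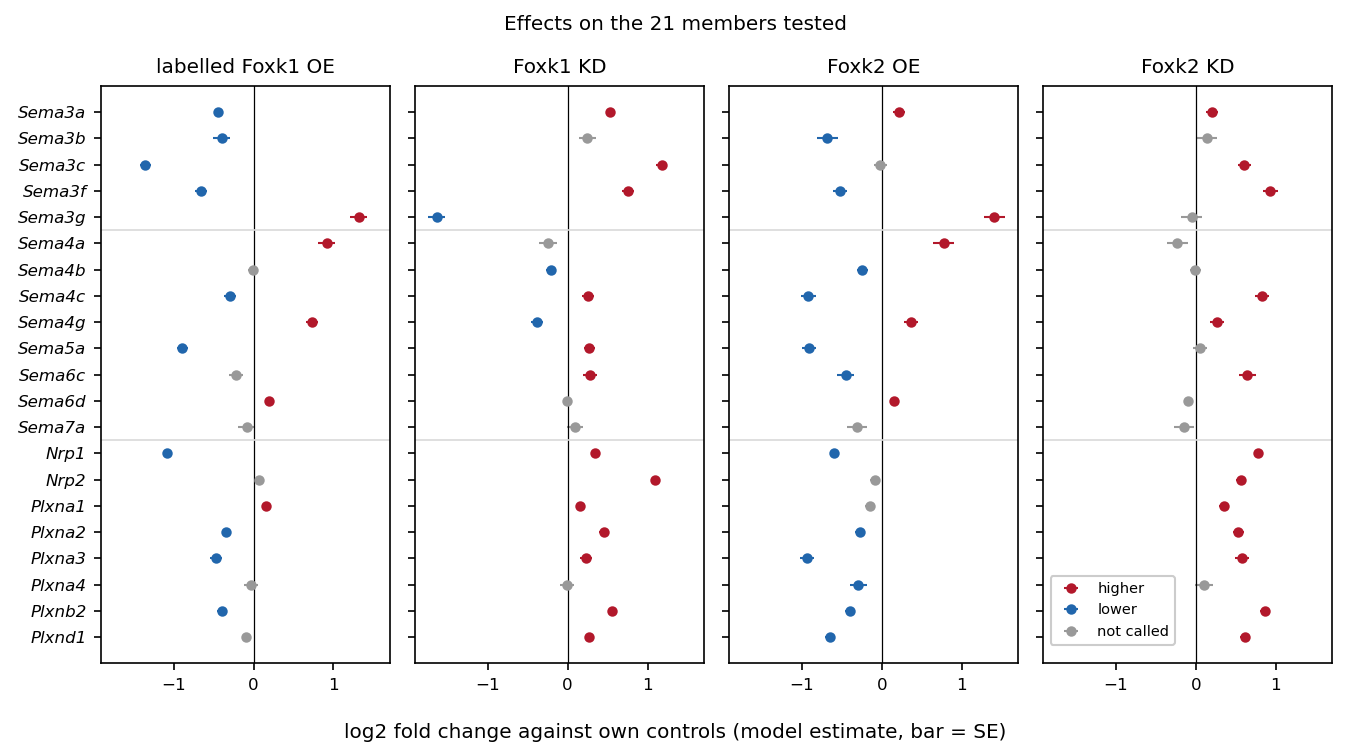
Log2 fold change of the 21 tested members against their own controls in each comparison, from log2(RPKM + 0.5); points are model estimates, bars their SE, and colour marks the call at adjusted p under 0.05. Class 3 ligands are at the top, other semaphorins in the middle and receptors at the bottom. Of the 8 receptors, 7 are called higher in each knockdown, and Plxna4 is near 0 in Foxk1 knockdown (-0.011).

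Markers of fibroblasts and preadipocytes moved with these counts. All 10 of that list were called lower in both overexpressions and higher in both knockdowns, against 6.98% of all genes tested. Their summed level was 287 to 304 RPKM in labelled Foxk1 overexpression against 772 to 931 in its controls, and 2653 to 2783 in Foxk1 knockdown against 1491 to 1598. Corresponding sums were 270.2 to 290.1 against 621 to 635 for Foxk2 overexpression and 1154 to 1213 against 421 to 423 for Foxk2 knockdown. No marker of that list was at 0 in all libraries.

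Adipocyte markers were abundant in every group, as the label of the cells states. Their sum was 7431 to 7531 RPKM in labelled Foxk1 overexpression against 11735 to 12247, and 9706 to 10232 in Foxk1 knockdown against 11136 to 11566. It was 5660.0 to 5689 against 10345 to 10523 in Foxk2 overexpression, and 9822 to 10037 against 11139 to 11242 in Foxk2 knockdown. Of the 10 adipocyte markers, 7, 7, 8 and 3 were called lower and 1, 0, 1 and 1 higher in the 4 comparisons in that order, where 47.8%, 35.9%, 45.0% and 33.7% of all genes were called. The part of either list in the members' changes was not tested, and fewer cells of a type and less RNA per cell cannot be told apart in these bulk libraries. Defining endothelial genes (Pecam1, Cdh5, Tek, Tie1, Emcn, Kdr, Vwf), macrophage genes (Adgre1, Ptprc, Itgam, Mrc1) and 7 of 8 neuron and glia genes were under 0.5 RPKM in every library. The 8 macrophage markers summed to 4.80 to 5.47 RPKM in labelled Foxk1 overexpression against 6.23 to 6.98, and to 7.09 to 8.01 in Foxk1 knockdown against 4.58 to 5.50. For Foxk2 these sums were 4.73 to 5.24 against 6.07 to 6.77 in overexpression and 6.73 to 8.03 against 3.75 to 4.03 in knockdown, and their part was not tested. Endothelial markers summed to 0.760 to 1.90 RPKM and neuron and glia markers to 0.688 to 1.64 over the 20 libraries.

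Class 3 ligands held the largest changes of the family. Of the 5 tested, 4 fell and 1 rose in the libraries labelled Foxk1 overexpression (47.8% of all genes called), and 3 rose and 1 fell in Foxk1 knockdown (35.9%). In Foxk2 overexpression 2 rose and 2 fell (45.0%), and in Foxk2 knockdown 3 rose (33.7%). Sema3c and Sema3g went opposite ways in the Foxk1 comparisons.

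Sema3c (ENSMUSG00000028780.13, chromosome 5, 17574281 to 17730268 in mm10) binds both neuropilins and signals with Plxnd1 in the developing heart. Controls of labelled Foxk1 overexpression had 5.96, 4.75 and 5.07 RPKM and the libraries so labelled 1.91, 1.74 and 1.59. Scrambled-shRNA controls of Foxk1 knockdown had 6.61, 6.31 and 6.07 RPKM and the knockdown 15.3, 15.2 and 14.3. Each manipulated library thus lay outside its controls, all low under the overexpression label and all high in knockdown. With Foxk2 the overexpression controls had 4.95 and 4.75 RPKM and the overexpression libraries 4.66 and 4.91, which overlapped. Foxk2 knockdown controls had 3.97 and 3.87 RPKM and knockdown libraries 6.15 and 6.28, which did not. The log2 fold change was -1.36 ± 0.067 (SE, adjusted p = 2.4e-10) for the Foxk1 overexpression label and 1.17 ± 0.067 (SE, adjusted p = 4.17e-09) for Foxk1 knockdown. It was -0.018 ± 0.082 (SE, adjusted p = 0.927) for Foxk2 overexpression, which did not pass, and 0.60 ± 0.082 (SE, adjusted p = 3.44e-05) for Foxk2 knockdown.

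Sema3g (ENSMUSG00000021904.5, chromosome 14, 31217860 to 31230352) encodes a secreted ligand of neuropilins that acts mainly through Nrp2. It stood at 5.02, 6.82 and 5.34 RPKM in the controls of labelled Foxk1 overexpression and at 14.3, 14.7 and 15.6 in the labelled libraries. In Foxk1 knockdown it was at 1.46, 1.53 and 2.04 RPKM against 6.41, 6.84 and 5.52 in controls. The groups did not overlap in either comparison, and the order was the reverse of that of Sema3c. Foxk2 overexpression libraries had 4.66 and 4.83 RPKM and their controls 1.46 and 1.48, again apart. Foxk2 knockdown libraries, at 1.47 and 1.42 RPKM, overlapped their controls at 1.47 and 1.58. The log2 fold changes were 1.31 ± 0.11 (SE, adjusted p = 6.11e-08) and -1.64 ± 0.11 (SE, adjusted p = 1.38e-08) for the Foxk1 label and knockdown. For Foxk2 overexpression it was 1.41 ± 0.13 (SE, adjusted p = 3.04e-07), and for Foxk2 knockdown -0.052 ± 0.13 (SE, adjusted p = 0.841). Control levels differed between the sets of libraries, being above 5 RPKM in the 6 Foxk1 controls and under 2 in the 4 Foxk2 controls.

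The 250 bases before the RefSeq start of Sema3c and Sema3g, on the plus strand of GRCm38.p6, are shown because these ligands changed most and in opposite directions; they were chosen after their values were seen. Capitals mark CG dinucleotides.
Sema3c, chr5:17574566-17574815: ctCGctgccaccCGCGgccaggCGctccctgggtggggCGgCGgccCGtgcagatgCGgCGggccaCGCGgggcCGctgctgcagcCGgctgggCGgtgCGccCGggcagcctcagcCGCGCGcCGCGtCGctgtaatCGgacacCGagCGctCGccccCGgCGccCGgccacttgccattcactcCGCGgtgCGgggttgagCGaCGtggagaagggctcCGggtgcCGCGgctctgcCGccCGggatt
Sema3g, chr14:31217623-31217872: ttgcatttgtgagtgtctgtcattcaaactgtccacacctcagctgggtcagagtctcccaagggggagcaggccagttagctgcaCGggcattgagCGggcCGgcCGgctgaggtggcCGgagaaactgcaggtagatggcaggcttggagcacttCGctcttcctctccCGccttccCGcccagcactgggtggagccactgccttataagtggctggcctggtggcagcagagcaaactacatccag
The Sema3c stretch held 39 CG dinucleotides and 78.4% G and C, and the Sema3g stretch 8 and 60.4%. The 37 promoter windows of 26 member genes in the RefSeq table, which also hold the 50 bases after each start, had medians of 15 CG dinucleotides and 63.7% G and C, so Sema3c stood above and Sema3g below them. The 32851 windows of all genes had medians of 7 and 52.7%.

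Sema3f (ENSMUSG00000034684.12, chromosome 9, 107681500 to 107710475) binds Nrp2 by preference and repels growing axons and vessels. Its level was 3.65, 3.96 and 3.73 RPKM in labelled Foxk1 overexpression against 6.25, 5.57 and 7.06, and 9.36, 8.74 and 8.39 in Foxk1 knockdown against 5.44, 5.01 and 4.61. Foxk2 overexpression gave 3.57 and 3.26 RPKM against 4.97 and 5.26, and Foxk2 knockdown 8.43 and 7.95 against 4.05 and 4.04. In all 4 comparisons the groups lay apart, low in overexpression and high in knockdown. Log2 fold changes were -0.66 ± 0.073 (SE, adjusted p = 1.94e-06) and 0.76 ± 0.073 (SE, adjusted p = 8.58e-07) for Foxk1, and -0.52 ± 0.089 (SE, adjusted p = 0.000174) and 0.93 ± 0.089 (SE, adjusted p = 9.35e-07) for Foxk2. Without the length and GC trend, the Foxk2 overexpression value was -0.29.

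Sema3a (ENSMUSG00000028883.17, chromosome 5, 13125414 to 13602565), the founding class 3 repellent, binds Nrp1 with class A plexins. Libraries labelled Foxk1 overexpression had 1.19, 0.920 and 0.954 RPKM, all under their controls at 1.60, 1.55 and 1.53. Foxk1 knockdown had 4.99, 4.77 and 4.62 RPKM, all above 3.25, 3.18 and 3.04 in its controls. The log2 fold changes were -0.44 ± 0.060 (SE, adjusted p = 2e-05) and 0.53 ± 0.060 (SE, adjusted p = 4.79e-06). With Foxk2 both directions of manipulation gave higher values, 1.55 and 1.58 RPKM against 1.27 and 1.29 in overexpression and 1.54 and 1.60 against 1.26 and 1.33 in knockdown. Those changes were small, 0.21 ± 0.074 (SE, adjusted p = 0.0273) and 0.21 ± 0.074 (SE, adjusted p = 0.0418). Neither Foxk2 call held without any 1 of the 4 libraries of its comparison (adjusted p 0.0763 to 0.111 in overexpression and 0.0905 to 0.186 in knockdown). The overexpression call also ended without the length and GC trend and when its own libraries were modelled by themselves, and the knockdown call under 6 further alternatives, with 0.12 after quantile normalization.

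Sema3b (ENSMUSG00000057969.15, chromosome 9, 107597674 to 107609229) encodes another secreted ligand of neuropilins. Its level was 0.841, 0.922 and 1.08 RPKM in labelled Foxk1 overexpression against 1.34, 1.18 and 1.73, and 0.887 and 0.720 in Foxk2 overexpression against 1.59 and 1.59. Overexpression libraries were below every control in both, with log2 fold changes of -0.40 ± 0.11 (SE, adjusted p = 0.00556) and -0.68 ± 0.13 (SE, adjusted p = 0.000438). The first ended when its own libraries were modelled by themselves (adjusted p = 0.0605). Knockdown libraries had 1.83, 1.61 and 1.69 RPKM against 1.55, 1.43 and 1.13 for Foxk1 and 1.19 and 1.28 against 1.12 and 1.03 for Foxk2. Neither passed, at 0.25 ± 0.11 (SE, adjusted p = 0.0841) and 0.14 ± 0.13 (SE, adjusted p = 0.478), although no knockdown library overlapped its controls. Without replicate 1 of the Foxk1 knockdown controls the first was called (0.32, adjusted p = 0.0483).

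Among membrane-bound semaphorins, 8 of 13 were tested. In labelled Foxk1 overexpression 3 of these rose and 2 fell (47.8% of all genes called), and in Foxk2 overexpression 3 rose and 4 fell (45.0%). In Foxk1 knockdown 3 rose and 2 fell (35.9%), and in Foxk2 knockdown 3 of 8 rose, a share near the 33.7% of all genes. Sema4c and Sema5a were lower in both overexpressions, and Sema4a and Sema4g higher in both.

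Sema4c (ENSMUSG00000026121.13, chromosome 1, 36548639 to 36558349) is a ligand of Plxnb2. Libraries labelled Foxk1 overexpression had 2.32, 2.55 and 2.42 RPKM against 3.40, 2.61 and 3.33, and Foxk2 overexpression 1.56 and 1.32 against 3.03 and 3.29. Knockdown gave 6.75, 6.37 and 6.23 RPKM against 5.31, 5.17 and 5.44 for Foxk1 and 4.69 and 5.01 against 2.53 and 2.50 for Foxk2. All groups lay apart, with overexpression low and knockdown high. The log2 fold changes were -0.30 ± 0.075 (SE, adjusted p = 0.00396) and 0.26 ± 0.075 (SE, adjusted p = 0.0133) for Foxk1, and -0.92 ± 0.092 (SE, adjusted p = 7.36e-07) and 0.83 ± 0.092 (SE, adjusted p = 4.49e-06) for Foxk2. The Foxk1 knockdown call ended without knockdown replicate 1 (adjusted p = 0.0543), and the Foxk1 overexpression call when its own libraries were modelled by themselves (adjusted p = 0.0774). Of its exon bases, 7.27% are shared with the annotated gene D430040D24Rik.

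Sema5a (ENSMUSG00000022231.9, chromosome 15, 32244810 to 32696341) carries thrombospondin repeats beside its semaphorin domain. Its level was 1.63, 1.41 and 1.48 RPKM in labelled Foxk1 overexpression against 3.23, 3.41 and 3.08, and 1.52 and 1.59 in Foxk2 overexpression against 3.56 and 3.18. Overexpression libraries lay below every control for both factors. Foxk1 knockdown had 1.19, 1.25 and 1.42 RPKM against 1.08, 0.911 and 0.968, apart from its controls, and Foxk2 knockdown 2.24 and 2.51 against 2.24 and 2.29, overlapping them. The fold changes on the log2 scale were -0.90 ± 0.069 (SE, adjusted p = 3.46e-08) and -0.91 ± 0.084 (SE, adjusted p = 3.19e-07) in overexpression, 0.27 ± 0.069 (SE, adjusted p = 0.00623) in Foxk1 knockdown and 0.055 ± 0.084 (SE, adjusted p = 0.708) in Foxk2 knockdown. The Foxk1 knockdown value was 0.17 after quantile normalization and 0.15 without the length and GC trend, and was not called in either.

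Sema4a (ENSMUSG00000028064.17, chromosome 3, 88435959 to 88461182) binds class B plexins and Plxnd1. Overexpression libraries had 1.50, 1.78 and 1.93 RPKM under the Foxk1 label against 0.552, 0.833 and 0.680, and 1.51 and 1.54 with Foxk2 against 0.696 and 0.668. Every overexpression library was above every control, with log2 fold changes of 0.91 ± 0.11 (SE, adjusted p = 4.27e-06) and 0.77 ± 0.13 (SE, adjusted p = 0.000171). In knockdown the values were 0.476, 0.442 and 0.292 RPKM against 0.703, 0.484 and 0.528 for Foxk1, and 0.666 and 0.632 against 0.829 and 0.873 for Foxk2. These were lower in each library than in every control but did not pass, at -0.25 ± 0.11 (SE, adjusted p = 0.0896) and -0.23 ± 0.13 (SE, adjusted p = 0.206). The Foxk1 knockdown value was called under 2 alternatives and the Foxk2 knockdown value under 3, the length and GC trend removed being among both.

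Sema4g (ENSMUSG00000025207.15, chromosome 19, 44989101 to 45003397) is a membrane-bound ligand for which Plxnb2 is a known receptor. Libraries labelled Foxk1 overexpression had 1.15, 1.23 and 1.21 RPKM against 0.503, 0.545 and 0.514, and Foxk1 knockdown had 0.622, 0.785 and 0.648 against 1.15, 1.05 and 0.936. The first were all above and the second all below their controls, with log2 fold changes of 0.74 ± 0.075 (SE, adjusted p = 8.36e-07) and -0.38 ± 0.075 (SE, adjusted p = 0.000862). Foxk2 overexpression had 0.771 and 0.824 RPKM against 0.454 and 0.563, and Foxk2 knockdown 0.746 and 0.814 against 0.589 and 0.543. Both Foxk2 manipulations lay above their controls, at 0.37 ± 0.092 (SE, adjusted p = 0.00404) and 0.26 ± 0.092 (SE, adjusted p = 0.0371). The Foxk2 overexpression call ended without replicate 1 of its controls (adjusted p = 0.0532). The Foxk2 knockdown call ended without any 1 of its 4 libraries (adjusted p 0.0695 to 0.184) and under 4 alternatives, with a value of 0.050 without the length and GC trend. At these levels the pseudocount compresses folds: with voom on recovered reads the 4 values were 1.20, -0.62, 0.66 and 0.46.

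The other 4 tested semaphorins were Sema6d, Sema4b, Sema6c and Sema7a. Sema6d, a membrane-bound ligand of Plxna1, ranged from 5.71 to 11.6 RPKM over the 20 libraries and rose in both overexpressions, by 0.19 ± 0.038 (SE, adjusted p = 0.000628) and 0.15 ± 0.046 (SE, adjusted p = 0.0156). The Foxk2 call ended without control replicate 1 or overexpression replicate 2 (adjusted p 0.0724 to 0.129) and when its own libraries were modelled by themselves. In knockdown it had -0.010 for Foxk1 and -0.10 for Foxk2, neither called. Without the length and GC trend both were called (-0.10 and -0.20), and with median-ratio scaling the Foxk2 value was called (-0.13).

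Sema4b, also membrane-bound, ranged from 4.34 to 7.10 RPKM. It fell in Foxk1 knockdown (-0.21 ± 0.061 (SE, adjusted p = 0.0134)) and in Foxk2 overexpression (-0.24 ± 0.075 (SE, adjusted p = 0.0152)). The first call ended without replicate 1 of its controls (adjusted p = 0.0730) and when its own libraries were modelled by themselves, the second without control replicate 2 or overexpression replicate 2 (adjusted p 0.0855 to 0.0916) and after quantile normalization. Without the length and GC trend the second was -0.049. Sema6c, a membrane-bound relative of Sema6d, ranged from 0.225 to 0.956 RPKM. It rose in both knockdowns, by 0.27 ± 0.086 (SE, adjusted p = 0.0213) and 0.64 ± 0.11 (SE, adjusted p = 0.000207), and fell in Foxk2 overexpression (-0.45 ± 0.11 (SE, adjusted p = 0.00248)). The Foxk1 knockdown call ended without control replicate 2, control replicate 3 or knockdown replicate 2 (adjusted p 0.0520 to 0.0896) and under 2 alternatives, and the Foxk2 overexpression call without the length and GC trend (-0.17). In the libraries labelled Foxk1 overexpression Sema6c had -0.22 ± 0.086 (SE, adjusted p = 0.0509) and was called without replicate 3 of the labelled libraries (adjusted p = 0.0390) and under 4 alternatives. With voom the Foxk2 values of Sema6c were -1.08 in overexpression and 1.23 in knockdown.

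Sema7a, the membrane-anchored ligand of Plxnc1 and of beta1 integrins, passed in no comparison. It stood at 0.862, 0.902 and 0.638 RPKM in the Foxk1 knockdown controls and at 1.04, 0.797 and 0.816 in the knockdown, and at 0.235 RPKM or less in the other 14 libraries. In Foxk2 overexpression it had -0.31 ± 0.12 (SE, adjusted p = 0.0569) and was called under 7 of 12 alternatives. Its partner Plxnc1 was listed at 0 in 14 of 20 libraries, with a highest value of 0.0322 RPKM.

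Of 11 receptors, 8 were tested. In knockdown 7 rose with Foxk1, where 35.9% of all genes were called in either direction, and 7 with Foxk2, where 33.7% were. In labelled Foxk1 overexpression 4 fell and 1 rose (47.8% of all genes called), and in Foxk2 overexpression 6 fell (45.0%).

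Nrp1 (ENSMUSG00000025810.8, chromosome 8, 128358604 to 128503363) is the neuropilin of Sema3a and a co-receptor of vascular endothelial growth factor. It had 17.7, 16.0 and 16.3 RPKM in the libraries labelled Foxk1 overexpression against 38.0, 34.3 and 35.5 in controls, 0.463 times the control mean. In Foxk2 overexpression it had 26.0 and 27.3 RPKM against 41.1 and 39.9. Both manipulations lay below all their controls, at -1.09 ± 0.041 (SE, adjusted p = 1.3e-11) and -0.60 ± 0.051 (SE, adjusted p = 1.27e-07) on the log2 scale. Foxk1 knockdown had 46.0, 44.0 and 45.7 RPKM against 34.6, 36.5 and 35.3, and Foxk2 knockdown 53.3 and 53.0 against 30.8 and 31.0. Knockdown libraries were all above their controls, with log2 fold changes of 0.35 ± 0.041 (SE, adjusted p = 8.34e-06) and 0.77 ± 0.051 (SE, adjusted p = 1.82e-08).

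Nrp2 (ENSMUSG00000025969.15, chromosome 1, 62703285 to 62818695) is the neuropilin of Sema3f and Sema3g. Its level was 4.70, 4.76 and 4.77 RPKM in Foxk1 knockdown against 2.11, 1.95 and 1.81, 2.43 times the control mean, and 2.14 and 2.24 in Foxk2 knockdown against 1.34 and 1.30. Both lay above all controls, with 1.10 ± 0.052 (SE, adjusted p = 6.33e-10) and 0.56 ± 0.063 (SE, adjusted p = 5.36e-06). Overexpression libraries had 2.24, 2.17 and 2.17 RPKM against 2.17, 2.11 and 1.94 under the Foxk1 label and 1.76 and 1.89 against 2.01 and 1.91 with Foxk2. Neither change passed, at 0.066 ± 0.052 (SE, adjusted p = 0.329) and -0.080 ± 0.063 (SE, adjusted p = 0.350). The first was called after quantile normalization (0.16) and without the length and GC trend (0.14).

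Nrp1 and Nrp2 had the smallest adjusted p of the members in 1 or more comparisons, and the 250 bases before their RefSeq starts (plus strand, GRCm38.p6) are shown for that reason. CG dinucleotides are in capitals.
Nrp1, chr8:128358823-128359072: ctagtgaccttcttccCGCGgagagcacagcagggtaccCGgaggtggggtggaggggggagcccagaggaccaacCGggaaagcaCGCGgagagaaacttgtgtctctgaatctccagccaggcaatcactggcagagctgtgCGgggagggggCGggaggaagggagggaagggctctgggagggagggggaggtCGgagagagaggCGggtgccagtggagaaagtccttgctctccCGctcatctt
Nrp2, chr1:62703067-62703316: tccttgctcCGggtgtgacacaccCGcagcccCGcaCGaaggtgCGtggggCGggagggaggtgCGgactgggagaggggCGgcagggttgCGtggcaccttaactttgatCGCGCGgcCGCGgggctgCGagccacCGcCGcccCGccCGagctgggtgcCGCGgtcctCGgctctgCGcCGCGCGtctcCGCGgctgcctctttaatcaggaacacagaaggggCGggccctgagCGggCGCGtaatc
The Nrp1 stretch held 11 CG dinucleotides and 64.4% G and C, and the Nrp2 stretch 32 and 72.4%. The forkhead core GTAAACA or its reverse complement TGTTTAC was in 0 of the 37 member windows (250 bases before to 50 after a start, both strands) and in 3.65% of the 32851 windows of all genes. Plxna1, Plxna4, Sema3b, Sema3f and Sema6a have no window in that table. No match says only that these letters are absent from these windows.

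**Figure D3:**
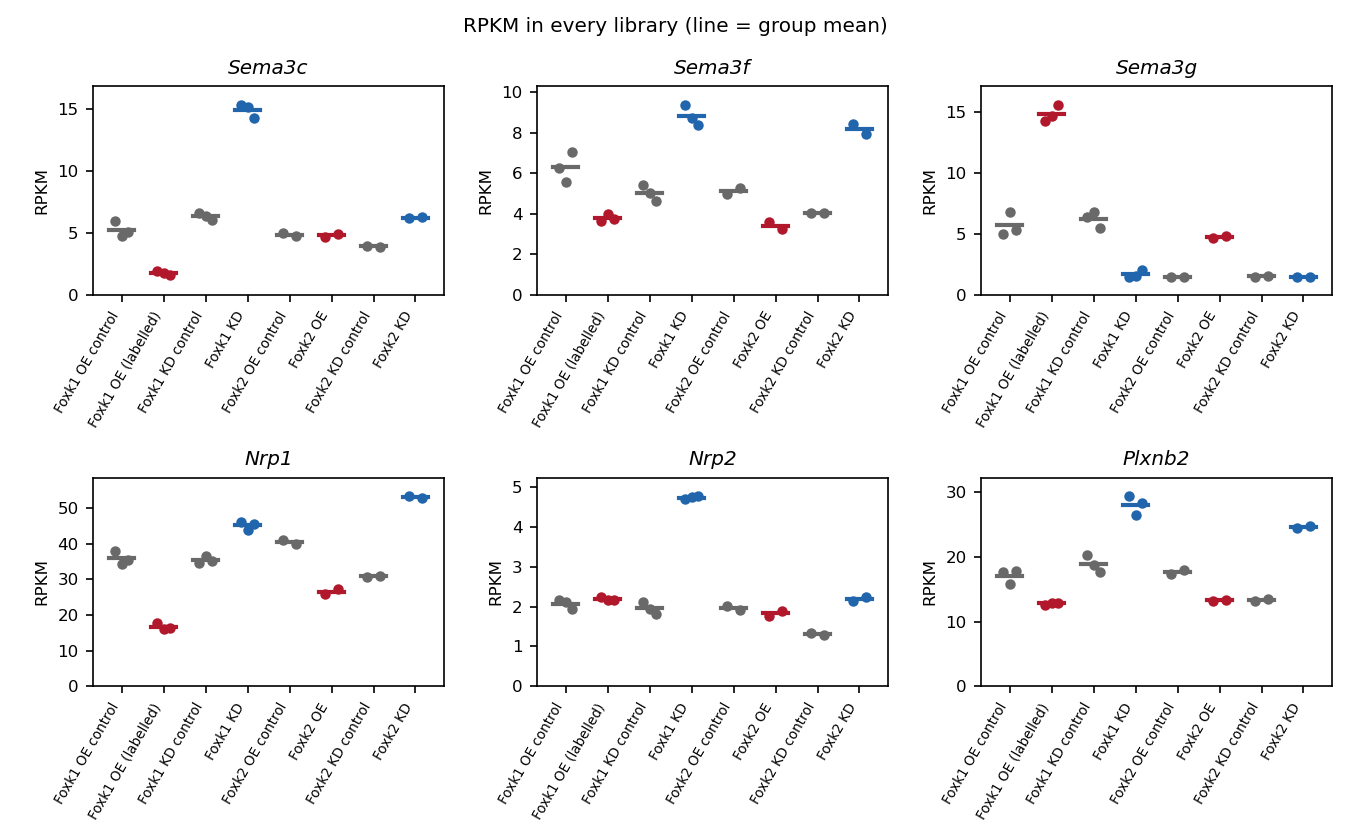
RPKM of 3 class 3 ligands and 3 receptors in every library (points) with the group mean (line); grey marks controls, red overexpression and blue knockdown, and each vertical axis starts at 0. Nrp2 stands above 4 RPKM only in the 3 Foxk1 knockdown libraries, and Sema3g above 10 only in the 3 libraries labelled Foxk1 overexpression.

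Plxnd1 (ENSMUSG00000030123.15, chromosome 6, 115954811 to 115995005) is the receptor of Sema3e and, with neuropilins, of Sema3c. Foxk2 overexpression gave 29.3 and 28.2 RPKM against 43.9 and 47.0, and Foxk2 knockdown 58.4 and 54.6 against 37.2 and 36.3. The groups did not overlap, low in overexpression and high in knockdown, with -0.65 ± 0.061 (SE, adjusted p = 3.86e-07) and 0.61 ± 0.061 (SE, adjusted p = 1.49e-06). Foxk1 knockdown had 40.4, 39.7 and 42.6 RPKM against 35.9, 33.4 and 32.8, a rise of 0.26 ± 0.050 (SE, adjusted p = 0.000685). The libraries labelled Foxk1 overexpression, at 23.4, 25.1 and 24.2 RPKM, overlapped their controls at 25.9, 24.2 and 27.6. That difference of -0.094 ± 0.050 (SE, adjusted p = 0.139) did not pass, but did without replicate 2 of its controls (adjusted p = 0.0335) and after quantile normalization (adjusted p = 0.0364). Without the length and GC trend the Foxk2 values were -0.37 and 0.38, still called.

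Plxnb2 (ENSMUSG00000036606.16, chromosome 15, 89155549 to 89180788) is the receptor of Sema4c. Libraries labelled Foxk1 overexpression had 12.6, 12.9 and 12.9 RPKM against 17.6, 15.8 and 17.9, and Foxk2 overexpression 13.2 and 13.4 against a control mean of 17.7 ± 0.423 (SD, n = 2). In knockdown it reached 29.3, 26.5 and 28.4 RPKM against 20.4, 18.8 and 17.7 for Foxk1, and 24.5 and 24.7 against 13.1 and 13.6 for Foxk2. All 4 pairs of groups were apart. Overexpression gave -0.40 ± 0.052 (SE, adjusted p = 1.05e-05) and -0.40 ± 0.063 (SE, adjusted p = 8.01e-05), and knockdown 0.56 ± 0.052 (SE, adjusted p = 5.88e-07) and 0.86 ± 0.063 (SE, adjusted p = 5.85e-08). The Foxk2 overexpression value was -0.18 without the length and GC trend. Sema4c, its ligand, had the same direction as Plxnb2 in each comparison. Sema4g, for which Plxnb2 is also a known receptor, went the other way in both overexpressions and in Foxk1 knockdown. In Foxk2 knockdown Sema4g rose, as Plxnb2 did.

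Plxna3 (ENSMUSG00000031398.13, chromosome X, 74329066 to 74344689) carries Sema3f signals with Nrp2. Its level was 1.16, 0.966 and 1.14 RPKM in labelled Foxk1 overexpression against 1.76, 1.57 and 1.78, and 1.01 and 0.974 in Foxk2 overexpression against 2.34 and 2.38. Overexpression libraries were below all controls, at -0.47 ± 0.072 (SE, adjusted p = 6.03e-05) and -0.94 ± 0.089 (SE, adjusted p = 4.11e-07). Foxk2 knockdown had 3.19 and 3.12 RPKM against 2.01 and 1.87, apart from its controls, with 0.58 ± 0.089 (SE, adjusted p = 0.000102). Foxk1 knockdown had 4.09, 3.87 and 3.67 RPKM and overlapped its controls at 3.68, 3.11 and 2.93. That rise, 0.23 ± 0.072 (SE, adjusted p = 0.0204), ended without control replicate 2, control replicate 3 or knockdown replicate 1 (adjusted p 0.0701 to 0.0995) and when that comparison or factor was modelled by itself.

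Plxna2 (ENSMUSG00000026640.12, chromosome 1, 194618218 to 194816869) is a class A partner of neuropilins and binds class 6 semaphorins directly. It had 2.10, 1.85 and 1.87 RPKM in labelled Foxk1 overexpression against 2.47, 2.71 and 2.60, and 4.27, 4.62 and 4.59 in Foxk1 knockdown against 3.27, 3.19 and 3.01. Foxk2 overexpression gave 2.66 and 2.71 RPKM against 3.17 and 3.53, and Foxk2 knockdown 4.57 and 4.73 against 3.04 and 3.08. No group overlapped its controls, with the same direction for both factors. Its log2 fold changes were -0.34 ± 0.053 (SE, adjusted p = 6.36e-05) and 0.45 ± 0.053 (SE, adjusted p = 7.17e-06) for Foxk1, and -0.27 ± 0.065 (SE, adjusted p = 0.00271) and 0.53 ± 0.065 (SE, adjusted p = 1.19e-05) for Foxk2. The Foxk2 overexpression call ended when its own libraries were modelled by themselves (adjusted p = 0.0723).

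Plxna1, the class A plexin of highest level, ranged from 20.9 to 38.6 RPKM. It rose in both knockdowns, by 0.16 ± 0.050 (SE, adjusted p = 0.0218) and 0.35 ± 0.061 (SE, adjusted p = 0.000321), and in the libraries labelled Foxk1 overexpression by 0.15 ± 0.050 (SE, adjusted p = 0.0194). It was the only member called in the same direction in both Foxk1 comparisons. The Foxk1 knockdown call ended without control replicate 2 or 3 or knockdown replicate 1 or 3 (adjusted p 0.0715 to 0.102), and that of the overexpression label without control replicate 2 or labelled replicate 1 (adjusted p 0.0620 to 0.0688). Of 12 alternatives, 3 ended the knockdown call and 1 the call of the label. Without the length and GC trend, the Foxk2 knockdown value was 0.14. In Foxk2 overexpression it had -0.14 ± 0.061 (SE, adjusted p = 0.0662) and was called under 3 alternatives. Of its exon bases, 10.7% are shared with the annotated gene Gm26811, and without strand information reads there cannot be assigned to 1 of them.

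Plxna4, a plexin of Sema3a signalling, ranged from 0.180 to 0.784 RPKM and passed only in Foxk2 overexpression, at -0.29 ± 0.11 (SE, adjusted p = 0.0447). That call ended without any 1 of the 4 libraries (adjusted p 0.109 to 0.146) and under 4 alternatives. Its value was -0.49 with a pseudocount of 0.1 and -0.59 with voom.

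Summed over the 20 semaphorins, the level was 58.9 to 60.5 RPKM in Foxk1 knockdown against 46.9 to 51.5 in controls, and 42.4 to 42.8 in Foxk2 knockdown against 33.3 to 33.6. Overexpression moved the sum less: 40.7 to 42.6 RPKM against 39.2 to 39.5 under the Foxk1 label, and 34.6 in both Foxk2 libraries against 36.4 to 36.8. The 9 plexins summed to 120.6 to 125.7 RPKM in Foxk2 knockdown against 81.3 to 82.3, and to 71.7 to 73.9 in Foxk2 overexpression against 96.4 to 101.8. For Foxk1 they summed to 109.8 to 118.9 RPKM in knockdown against 88.4 to 99.6, and to 64.1 to 64.7 under the overexpression label against 65.7 to 72.2. These sums are descriptions without a test. The semaphorin total was higher than in controls both in labelled Foxk1 overexpression and in Foxk1 knockdown. Under the overexpression label Sema3g rose while the other 4 tested class 3 ligands fell.

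Whether overexpression and knockdown of 1 factor had opposite effects was read from the calls in both. For Foxk1, 11 of 21 members were called in opposite directions, against 21.4% of all genes tested: Nrp1, Plxna2, Plxna3, Plxnb2, Sema3a, Sema3c, Sema3f, Sema3g, Sema4c, Sema4g and Sema5a. For Foxk2 there were 8, against 22.0%: Nrp1, Plxna2, Plxna3, Plxnb2, Plxnd1, Sema3f, Sema4c and Sema6c. Calls in the same direction were 1 for Foxk1 (Plxna1) and 2 for Foxk2 (Sema3a and Sema4g), against 3.47% and 2.11% of all genes. Sema3g and Sema4g were the 2 members of the Foxk1 opposite set that were higher under the overexpression label and lower in knockdown; the other 9 had the reverse order.

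**Figure D4:**
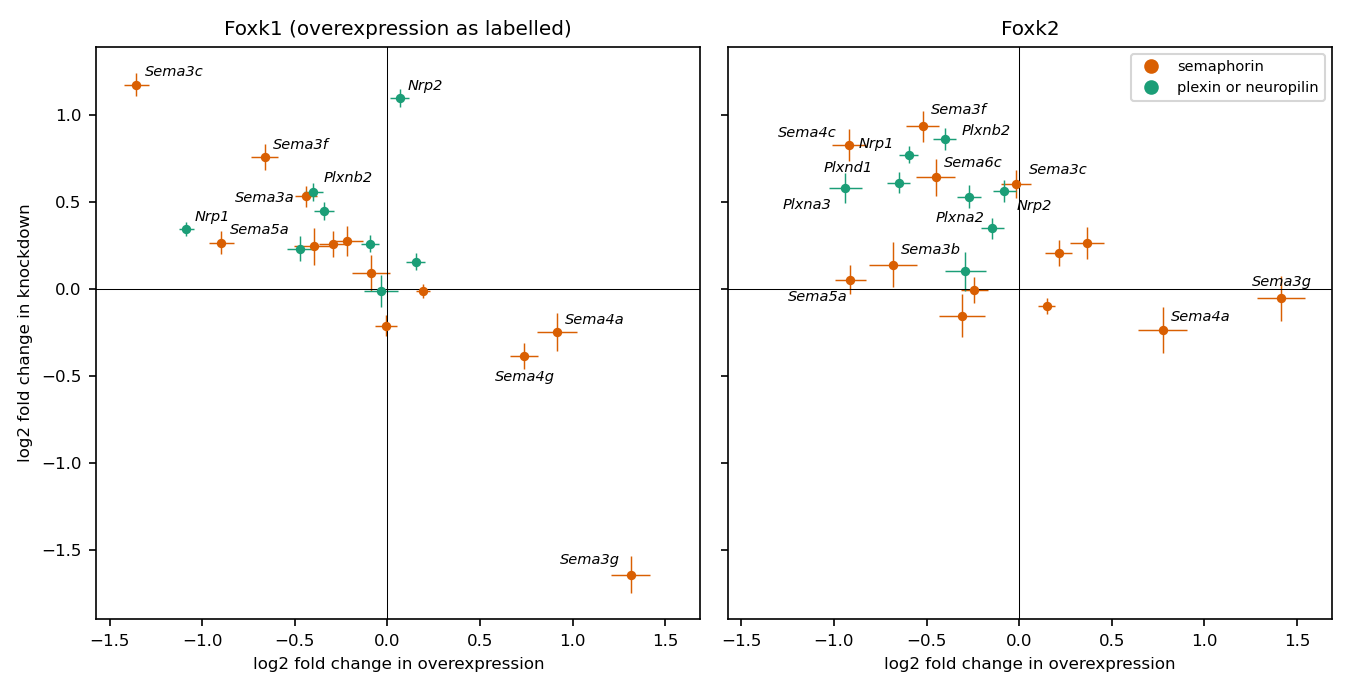
Log2 fold change in knockdown (vertical) against overexpression (horizontal) of the same factor for the 21 tested members; points are model estimates, bars their SE, and names are given where either value exceeds 0.5 in size. Most members lie in the upper left, lower in overexpression and higher in knockdown, and Sema3g lies at the lower right for Foxk1 (1.31 and -1.64) and near the horizontal axis for Foxk2 (1.41 and -0.052).

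Lower in both overexpressions and higher in both knockdowns were 6 members, Nrp1, Plxna2, Plxna3, Plxnb2, Sema3f and Sema4c, against 6.98% of all genes tested. Across factors, 12 members were called the same way in both overexpressions and Sema3a the opposite way, against 27.5% and 2.34% of all genes. In the knockdowns 12 of the 21 members rose in both, as did 1796 of the 15981 genes tested. Of all genes, 19.3% were called the same way in both knockdowns, rises and falls together. Sema4g was called in opposite directions, against 1.23%. Fibroblast and preadipocyte markers had the direction of these 6 members in all 4 comparisons, as given above, and their part was not tested.

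Effects of the 2 factors were compared by the difference of the effects in the same model, Foxk1 minus Foxk2. For overexpression, 8 members differed, 5 with a positive and 3 with a negative difference, against 25.1% of all genes. Sema3c had -1.34 ± 0.11 (SE, adjusted p = 5.89e-07): it fell under the Foxk1 label and did not pass with Foxk2. Sema3a (-0.65 ± 0.095 (SE, adjusted p = 0.000170)) and Nrp1 (-0.49 ± 0.065 (SE, adjusted p = 7.73e-05)) were also more negative under the Foxk1 label. Sema4c (0.62 ± 0.12 (SE, adjusted p = 0.00131)), Plxnd1 (0.56 ± 0.079 (SE, adjusted p = 0.000131)) and Plxna3 (0.47 ± 0.11 (SE, adjusted p = 0.00751)) were more negative with Foxk2. Plxna1 (0.30 ± 0.078 (SE, adjusted p = 0.0119)) and Sema4g (0.37 ± 0.12 (SE, adjusted p = 0.0322)) were the remaining 2.

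Knockdown effects differed for 9 members, 3 positive and 6 negative, against 14.3% of all genes. The largest difference was that of Sema3g, -1.59 ± 0.17 (SE, adjusted p = 2.84e-05), which fell in Foxk1 knockdown and had -0.052 in Foxk2 knockdown. Sema3c (0.57 ± 0.11 (SE, adjusted p = 0.00216)) and Nrp2 (0.53 ± 0.082 (SE, adjusted p = 0.000507)) rose further in Foxk1 knockdown. Sema4c (-0.57 ± 0.12 (SE, adjusted p = 0.00449)), Nrp1 (-0.43 ± 0.065 (SE, adjusted p = 0.000485)) and Plxnd1 (-0.35 ± 0.079 (SE, adjusted p = 0.00749)) rose further in Foxk2 knockdown. Sema3a (0.33 ± 0.095 (SE, adjusted p = 0.0315)), Plxnb2 (-0.30 ± 0.082 (SE, adjusted p = 0.0212)) and Sema4g (-0.65 ± 0.12 (SE, adjusted p = 0.00196)) were the remaining 3. These differences cross sets of libraries that stand apart on the first component, in depth and in replicate number, and factor and set cannot be told apart.

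Partner genes of the pathway were taken from 5 lists of 68 genes, of which 51 were tested. They hold vascular endothelial growth factors and their receptors, other co-receptors, plexin-linked GTPases and their regulators, kinases and cytoskeletal effectors, and convertases that cleave class 3 semaphorins. In labelled Foxk1 overexpression 9 rose and 24 fell, where 3847 and 3796 of the 15981 genes tested did. In Foxk1 knockdown 20 rose and 8 fell, beside 3260 and 2474 of all genes. Foxk2 overexpression raised 9 and lowered 23, beside 3678 and 3510, and Foxk2 knockdown raised 19 and lowered 6, beside 2879 and 2507. Medians of the 51 were -0.098, 0.10, -0.11 and 0.098 on the log2 scale in that order, beside the medians near 0 of all genes.

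Vegfd, a growth factor of lymphatic vessels, fell from 36.7 ± 4.07 to 9.93 ± 0.698 RPKM (SD, n = 3 and 3) in labelled Foxk1 overexpression, by -1.83 ± 0.066 (SE, adjusted p = 7.37e-12), and rose from 29.7 ± 1.48 to 60.4 ± 0.610 in Foxk1 knockdown, by 1.01 ± 0.066 (SE, adjusted p = 1.57e-08). Vegfa, the ligand that Nrp1 presents to vascular receptors, fell in Foxk1 knockdown from 107 ± 5.44 to 65.1 ± 1.06 RPKM (-0.72 ± 0.045 (SE, adjusted p = 1.17e-08)). Its signalling receptor Kdr was listed at 0 in 13 libraries and Flt4 in 18, so the ligands and Nrp1 stood beside Kdr and Flt4 near 0. The level of Flt1, the other receptor of that list, is not given here.

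Dpysl3, a collapsin response mediator of the cytoskeleton, fell in labelled Foxk1 overexpression (-1.64 ± 0.099 (SE, adjusted p = 2.35e-09)) and rose in both knockdowns, by 1.09 ± 0.099 (SE, adjusted p = 4.49e-07) and 1.31 ± 0.12 (SE, adjusted p = 6.97e-07). Erbb2, a receptor kinase that associates with class B plexins, had 1.80 ± 0.155 RPKM in Foxk2 overexpression and 4.70 ± 0.0927 in controls (SD, n = 2 and 2), a fall with -1.18 ± 0.090 (SE, adjusted p = 4.28e-08). Gpc1, a cell-surface proteoglycan, fell there (-1.16 ± 0.090 (SE, adjusted p = 5.04e-08)) and rose in Foxk2 knockdown (1.09 ± 0.090 (SE, adjusted p = 2.18e-07)). L1cam, a co-receptor of Nrp1 for Sema3a, rose in both overexpressions, by 0.82 ± 0.13 (SE, adjusted p = 8.11e-05) and 0.95 ± 0.16 (SE, adjusted p = 0.000139).

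Limk1, the kinase that inactivates cofilin, rose in labelled Foxk1 overexpression (0.68 ± 0.093 (SE, adjusted p = 1.91e-05)), and the integrin subunit gene Itga1 rose in Foxk2 overexpression (1.16 ± 0.081 (SE, adjusted p = 1.73e-08)). Rras, a small GTPase that plexins switch off, fell in Foxk1 knockdown (-0.34 ± 0.042 (SE, adjusted p = 1.35e-05)). Met, a receptor kinase that associates with class B plexins, fell in Foxk2 knockdown (-0.52 ± 0.046 (SE, adjusted p = 4.11e-07)), as did Rnd1, a GTPase that binds plexins (-0.50 ± 0.11 (SE, adjusted p = 0.00170)).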

How the data were processed

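The authors deposited RPKM values in 1 table of 20 libraries and 48440 genes. Per the submitters' processing notes, HISAT2 2.1.0, Picard 1.141, featureCounts of Subread 1.5.1 and edgeR were used with the mm10 build; the strand of the libraries is not given in the sources used here. GENCODE M21 supplied symbols and coordinates, with 9 members matched by identifier without version. Multiplying RPKM by merged exon length gave whole reads, within 0.1 read, from which depth was taken; for 3429 tested genes the length used was instead the shortest one giving whole reads, and recovered reads enter the voom alternative alone.

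Each library's values were used as log2(RPKM + 0.5), which understates folds of low genes. A gene was tested if 2 or more libraries had 0.5 RPKM or above, which 15981 genes met. A limma 3.58.1 model (R 4.3.3) was fitted over all libraries with 8 group means and 12 residual degrees of freedom, its prior variance following the mean level. Tests were two-sided with Benjamini-Hochberg adjustment over all genes tested, called at adjusted p under 0.05. On simulated data this shared spread gave more false calls than the nominal share in the Foxk1 comparisons, whose libraries are shallower, and fewer in the Foxk2 comparisons, and models of 1 factor alone came nearer to it for Foxk1. The simulation added the same spread to every gene and library. In the data the median SD of log2 values was 0.074 to 0.082 in Foxk1 groups and 0.039 to 0.053 in Foxk2 groups. Shares of false calls in the data may therefore differ from the simulated ones.

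Members, partner lists, markers and tests were chosen with earlier results of these data known, so no list is independent support. Values in every library are printed for members called with a log2 fold change of at least 0.5 in size and 1 RPKM or more in the higher group in 1 or more comparisons (15 members), and of partner genes the 2 largest rises and falls per comparison with that level. An error beside RPKM is the SD of a group's libraries, and one beside a log2 fold change is the SE of the model. Alternatives were 2 pseudocounts, 2 filters, 3 scalings, 2 smaller models, a robust prior, voom on recovered reads, a replicate block and each library left out. Copies of member transcripts were searched with BLAST+ 2.17.0 at 99% identity over 100 bases, and promoter windows came from RefSeq (GRCm38.p6). Python 3.11.15 was used with matplotlib 3.10.9 and pandas 2.3.3.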

Additional observations from a re-analysis of the deposited data

Results flagged for a closer look

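Effects of Foxk1 and Foxk2 differed for 11 members in a test of the difference itself. It took Foxk1 minus Foxk2 on the log2 scale, with limma and Benjamini-Hochberg adjustment over all genes. Of all genes tested, 25.1% differed in overexpression and 14.3% in knockdown. Factor and set of libraries cannot be told apart in these differences. In overexpression the differences were -1.34 for Sema3c, -0.65 for Sema3a, 0.62 for Sema4c, 0.56 for Plxnd1, -0.49 for Nrp1, 0.47 for Plxna3, 0.37 for Sema4g and 0.30 for Plxna1. In knockdown they were -1.59 for Sema3g, -0.65 for Sema4g, 0.57 for Sema3c, -0.57 for Sema4c, 0.53 for Nrp2, -0.43 for Nrp1, -0.35 for Plxnd1, 0.33 for Sema3a and -0.30 for Plxnb2. Sema3c, Nrp1, Plxnd1, Sema3a, Sema4c and Sema4g thus differed in both.

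Of the 17 differences, 4 lost their call when 1 library was left out, each with more than 1 choice of that library. A Foxk2 group then holds 1 library where the one left out is from Foxk2. The 4 estimates ranged from 0.29 to 0.45 for Sema4g and 0.26 to 0.33 for Plxna1 in overexpression. In knockdown they ranged from -0.35 to -0.25 for Plxnb2 and 0.30 to 0.35 for Sema3a. The Sema4g overexpression difference was not called without control replicate 1 or labelled replicates 2 or 3 of Foxk1, or without control replicate 2 or overexpression replicates 1 or 2 of Foxk2 (adjusted p 0.0559 to 0.150). The Plxna1 difference ended without Foxk2 control replicate 2 or overexpression replicate 2 (adjusted p 0.0587 to 0.0619), and the Plxnb2 knockdown difference without any 1 of the 4 Foxk2 knockdown and control libraries (adjusted p 0.0517 to 0.0834). The Sema3a knockdown difference ended without Foxk1 control replicates 2 or 3, Foxk1 knockdown replicates 1 or 2, or any 1 of the 4 Foxk2 libraries (adjusted p 0.0511 to 0.123). Without the length and GC trend the same 4 were not called: Sema4g had 0.22 (adjusted p = 0.222), Plxna1 0.15 (0.0662), Plxnb2 -0.15 (0.113) and Sema3a 0.28 (0.0604). The Sema4g call also ended with voom on recovered reads, without the filter on low values and with the replicate block, and that of Sema3a without the filter and with a pseudocount of 0.1. The Plxnd1 differences without that trend were 0.35 in overexpression and -0.15 in knockdown, both still called. Replicate groups here have 2 or 3 libraries, so no library was tested as standing apart from its group.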

How the results depend on the processing

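No called log2 fold change of a member changed sign under any of 12 alternatives or with any library left out. Members called ranged from 13 to 18 in Foxk1 knockdown, 13 to 17 in labelled Foxk1 overexpression, 11 to 14 in Foxk2 knockdown and 13 to 19 in Foxk2 overexpression. In the main model 35.9%, 47.8%, 33.7% and 45.0% of all genes tested were called in these comparisons. These shares change with the setting, and without the filter on low values they were 18.6%, 25.1%, 17.5% and 24.4%. The ranges join settings that test different numbers of members. Without the filter on low values members outside the 21 also enter, and at a mean of 1 RPKM only members reaching it do. Calls kept in every alternative numbered 10 of 16, 12 of 15, 11 of 13 and 10 of 17 in that order. With libraries left out in turn, partner genes called in the difference of knockdown effects ranged from 6 to 13, beside 12 with all libraries; the cause was not tested. The counts furthest below came without Foxk2 control replicate 2 or Foxk2 knockdown replicate 1 (6 each) and without Foxk1 knockdown control replicate 1 (7). With each factor modelled by itself, 14 members were called in Foxk1 knockdown, 16 under the Foxk1 overexpression label, 14 in Foxk2 knockdown and 19 in Foxk2 overexpression. The shares of all genes under that model are not set beside these counts, which are not read against all genes.

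Same-numbered libraries did not deviate together (correlations of deviations -0.0858 to 0.0331), so the numbers were not taken as pairs. The replicate block gave 15 members called in labelled Foxk1 overexpression, 15 in Foxk1 knockdown, 16 in Foxk2 overexpression, 11 in Foxk2 knockdown, 7 in the difference of overexpression effects and 10 in that of knockdown effects. Shares of all genes with the block are likewise not set beside these counts.

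Over all genes, the split of calls in Foxk1 knockdown was 3260 higher and 2474 lower, 2703 and 3490 without the length and GC trend, and 2707 and 3078 with median-ratio scaling. In Foxk2 knockdown it was 2879 and 2507, and 2295 and 3344 without that trend. The 10 members not tested were under the level needed in the shallower and the deeper libraries alike, and the absence of a call does not show that a gene did not change.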

Other observations

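Of the 10 members too low for the test, 4 were called in some comparison when every gene above 0 was kept. That count joins the comparisons. Those called were Sema3d and Sema6b in labelled Foxk1 overexpression and Sema3d and Plxnc1 in Foxk1 knockdown. Sema3d alone was called in Foxk2 overexpression and Plxnb1 alone in Foxk2 knockdown. Under that setting 25.1% of all genes were called in labelled Foxk1 overexpression, 18.6% in Foxk1 knockdown, 24.4% in Foxk2 overexpression and 17.5% in Foxk2 knockdown. These shares are per comparison and not for a call in any of them. The calls rest on few reads. In labelled Foxk1 overexpression Sema3d had 4, 0 and 3 recovered reads against 11, 14 and 11, and Sema6b 11, 19 and 19 against 1, 5 and 5. Sema3d, a secreted ligand, had 0.341, 0.341 and 0.286 RPKM in Foxk1 knockdown against 0.112, 0.0835 and 0.117 in controls (log2 fold change 0.44 ± 0.032 SE, adjusted p = 2.74e-07). It was lower in labelled Foxk1 overexpression, at 0.0249, 0 and 0.0182 RPKM against 0.0682, 0.0940 and 0.0682, and in Foxk2 overexpression, at 0.0247 and 0.0222 against 0.0772 and 0.0616. The pattern has the direction of Sema3c in the Foxk1 comparisons at a small part of its level. Sema6b had 0.148, 0.239 and 0.250 RPKM in labelled Foxk1 overexpression against 0.0134, 0.0726 and 0.0670 (0.37 ± 0.076, adjusted p = 0.00193). Plxnb1, a receptor of class 4 semaphorins, had 0.223 and 0.299 RPKM in Foxk2 knockdown against 0.0764 and 0.0721 (0.40 ± 0.095, adjusted p = 0.00757). Plxnc1 was listed at 0 in the 3 Foxk1 knockdown controls and had 0.0322, 0.0152 and 0.0149 RPKM in the knockdown; its call rests on values near 0 beside controls with no spread, and no fold is given.

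Control libraries of the sets differed for some members without a test between them. Sema3a stood at 3.25, 3.18 and 3.04 RPKM in the Foxk1 knockdown controls and at 1.60, 1.55 and 1.53 in the Foxk1 overexpression controls, both 3T3-L1 with a control construct. Sema5a had the reverse order, with 1.08, 0.911 and 0.968 RPKM in the scrambled-shRNA and 3.23, 3.41 and 3.08 in the empty-vector controls. Sema7a had 0.862, 0.902 and 0.638 RPKM in the former and 0.162, 0.123 and 0.162 in the latter. In each of these 3 ligands the 3 controls of one kind lay apart from the 3 of the other. That was not particular to them: controls also lay apart in Sema6d, Plxna1, Plxna3, Sema4c and Sema4g, among others. In Nrp1 and Nrp2 they overlapped. The share of all genes lying apart between these controls was not taken.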
